A study of Mus musculus with 8 samples.

Results

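To assess fat transcripts in the HVCN1 null heart, 10 genes of white and brown adipocytes were followed in 8 mouse hearts. The genes were taken from a given list of symbols, and all 10 were found among the 39056 genes of the count table by their mouse Ensembl identifiers. They were the secreted factors Adipoq, Lep, Retn and Cfd, the lipid droplet proteins Plin1 and Cidec, the brown fat genes Ucp1 and Cidea, the fatty acid carrier Fabp4 and the transcription factor Pparg. HVCN1 (also called Hv1) is a voltage-gated proton channel. Hearts came from male mice, 3 months old, and 4 of them were HVCN1 null (hearts 1 to 4) while 4 were wild-type controls (WT, hearts 5 to 8), given as C57BL/6 background. The null allele was described only as a gene knockout, with no promoter or cell type named, and each library was poly-A RNA of 1 heart.

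White adipocytes store triglyceride in 1 large droplet coated by perilipin, and signal their fat stores through hormones called adipokines. Brown adipocytes burn fatty acids for heat, through uncoupling of the mitochondrial proton gradient by UCP1. PPARG is the transcription factor without which adipocytes do not form, and it works as a partner of RXR and with C/EBP factors on many fat genes. Fat lies on the outside of the mouse heart and around the great vessels that enter and leave its base, next to the atria. Some of the 10 genes are also made outside fat. Fabp4 is well known in capillary endothelium, and Cidea has been described in other lipid-handling cells.

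Each gene's position was read from GENCODE M21 on GRCm38. Adipoq (ENSMUSG00000022878) lies at chr16:23146536-23158028, Cfd (ENSMUSG00000061780) at chr10:79890853-79892655 and Ucp1 (ENSMUSG00000031710) at chr8:83290352-83298452, all on the plus strand. Plin1 (ENSMUSG00000030546) lies at chr7:79720218-79732903 and Cidec (ENSMUSG00000030278) at chr6:113424634-113435760, both on the minus strand. Cidea overlapped B430212C06Rik, a gene on the opposite strand with 367 counts over the 8 hearts against 5752 for Cidea, and because the strand setting of the counting was not given in the sources used here, the reads of this pair could not be told apart. No other member overlapped an annotated gene.

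The 250 bases before the RefSeq start of 4 genes that the results turn on are shown to give the DNA next to their transcripts. They are 3 genes whose counts followed the atrial score described later, and Ucp1. Each sequence is written 5′ to 3′ on the gene's own strand from RefSeq, build GRCm38.p6. Capitals mark a match on either strand to AGGTCA, the half-site of nuclear receptors such as PPARG, to TTGCNNAA, the core letters of sites for C/EBP factors, or to TATAAA, the core promoter element bound by TBP.
Adipoq (chr16:23146286-23146535, plus strand): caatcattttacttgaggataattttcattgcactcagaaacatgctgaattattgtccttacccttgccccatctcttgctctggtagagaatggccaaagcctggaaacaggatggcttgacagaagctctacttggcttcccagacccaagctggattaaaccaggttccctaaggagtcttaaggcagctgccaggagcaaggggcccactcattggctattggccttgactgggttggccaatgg
Cfd (chr10:79890603-79890852, plus strand): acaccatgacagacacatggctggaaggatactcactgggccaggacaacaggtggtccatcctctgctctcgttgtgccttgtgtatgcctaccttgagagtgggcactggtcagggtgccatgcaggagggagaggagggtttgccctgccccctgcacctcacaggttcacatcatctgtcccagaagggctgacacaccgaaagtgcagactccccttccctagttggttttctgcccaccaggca
Cidec (chr6:113434765-113435014, minus strand): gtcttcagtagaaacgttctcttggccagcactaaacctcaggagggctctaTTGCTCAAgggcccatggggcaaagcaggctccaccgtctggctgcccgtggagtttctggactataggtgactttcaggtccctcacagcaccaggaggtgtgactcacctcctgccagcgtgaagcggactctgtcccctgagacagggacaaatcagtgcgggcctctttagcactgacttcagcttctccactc
Ucp1 (chr8:83290098-83290347, plus strand): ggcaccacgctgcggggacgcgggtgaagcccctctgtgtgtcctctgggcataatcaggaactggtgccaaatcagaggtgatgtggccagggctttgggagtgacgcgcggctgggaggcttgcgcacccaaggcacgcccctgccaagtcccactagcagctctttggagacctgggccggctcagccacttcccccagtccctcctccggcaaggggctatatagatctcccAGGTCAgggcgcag
The Adipoq and Cfd windows held none of the 3 motifs. The Cidec window, which belongs to the RefSeq start inside the gene, held TTGCNNAA at -198 to -191 from the start, the window at the outer Cidec start (chr6:113435761-113436010, not shown) held none, and the Ucp1 window held AGGTCA at -14 to -9. RefSeq windows were matched for 8 of the 10 genes, with 11 starts in all, and Cidea and Fabp4 had no entry. AGGTCA stood in 3 of the 11 windows and in 14.02% of 32851 promoters, TTGCNNAA in 4 of the 11 and in 9.56%, and TATAAA in 1 of the 11 and in 12.4%. Such a match is a description of letters and not of a bound site.

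Library totals ranged from 25851255 to 38874640 counts, of which 23.7% to 30.2% lay in mitochondrial genes. The targeted gene Hvcn1 gave 16 counts over the 4 null hearts and 318 over the 4 WT hearts, so the libraries followed their labels. The hearts differed in atrial tissue. An atrial score was computed as the mean log2 CPM (read counts scaled to a common library size, prior count 2) of Myl7, Sln, Myl4, Nppa, Bmp10, Mybphl and Kcnj3, genes of atrial muscle. Null hearts 1 to 4 scored 3.37, 8.51, 6.61 and 4.44, while the WT scores were 6.72, 0.956, 9.37 and 0.457 for hearts 5 to 8. It was therefore highest in null heart 2 and WT heart 7, which belong to different groups, and lowest in WT hearts 6 and 8. Bmp10, a growth factor of right atrial muscle, stood at 418 CPM in null heart 2 and at 574 CPM in WT heart 7, at 3.08 CPM in null heart 4, and at 0.0380 to 0.203 CPM in the other hearts. These last included null heart 3 and WT heart 5, where the atrial light chain Myl7 was at 609 and 578 CPM, against 632 CPM in null heart 2. A score of Myl7, Sln and Myl4 alone was 8.61, 8.51 and 8.46 in null heart 2, null heart 3 and WT heart 5. The lead of null heart 2 over those 2 hearts on the full score thus came mostly from Bmp10. Fewer cells of a type and less RNA per cell cannot be told apart in such whole-tissue libraries.

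Levels of the genes are given as CPM after TMM scaling of the library sizes, 1 value per heart. Adipoq encodes adiponectin, the most specific adipokine of mature adipocytes. Its level was 0.180, 3.08, 0.95 and 0.565 CPM in null hearts 1 to 4 and 0.152, 0.0309, 7.80 and 0.135 CPM in WT hearts 5 to 8. Null heart 2 and WT heart 7 were the highest of their groups, and the groups overlapped. WT heart 7 held 295 of the 472 Adipoq counts in the series, and the value of WT heart 6 rested on 1 count. Cfd encodes adipsin, a serine protease of the alternative complement pathway that fat releases into blood. It stood at 1.47, 16.5, 7.22 and 2.91 CPM in null hearts 1 to 4 and at 6.43, 0.247, 36.1 and 0.270 CPM in WT hearts 5 to 8. The range from WT heart 6 to WT heart 7 was 146-fold, and it lay within 1 genotype.

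Retn encodes resistin, an adipokine named for its link to insulin resistance in mice. Null hearts 1 to 4 had 0.120, 0.883, 0.228 and 0.254 CPM, while the WT values of hearts 5 to 8 were 0.329, 0.0309, 1.11 and 0.0338 CPM. The same 2 hearts were again the highest. Lep encodes leptin, the satiety hormone of white fat, and it was the scarcest of the 10 genes with 33 counts in all. Null hearts 1 to 4 gave 0, 2, 1 and 5 of these counts, while WT hearts 5 to 8 gave 1, 0, 24 and 0. WT heart 7 held most of them, and null heart 4, not null heart 2, was highest among the null hearts. A count of 0 allows up to 3 counts, for counting error only. Without TMM scaling this is 0.0919 CPM in null heart 1, 0.0886 in WT heart 6 and 0.0920 in WT heart 8.

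The droplet proteins Plin1 and Cidec ranked the 8 hearts alike, with null heart 2 and WT heart 7 on top. Plin1 encodes perilipin 1, the coat protein of the adipocyte droplet that gates lipolysis. Its level was 0.420, 4.36, 1.71 and 0.961 CPM in null hearts 1 to 4 and 1.19, 0.0927, 11.4 and 0.371 CPM in WT hearts 5 to 8. Cidec (also called Fsp27) helps small droplets fuse into 1 large droplet. It reached 0.390, 3.29, 1.67 and 0.622 CPM in null hearts 1 to 4 and 1.42, 0.0309, 7.11 and 0.135 CPM in WT hearts 5 to 8. WT heart 7 was 2.61-fold above null heart 2 for Plin1 and 2.16-fold above it for Cidec, and both hearts stood above the other 6.

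Ucp1, the defining gene of brown and beige fat, was counted in 2 hearts alone. It had 27 counts in null heart 2 and 190 counts in WT heart 7, or 0.722 and 5.03 CPM against 0 counts in each of the other 6. These are the 2 hearts with high Bmp10. Cidea, which in mice marks brown adipocytes, behaved differently from Ucp1. It was present at 15.1, 19.2, 21.8 and 23.3 CPM in null hearts 1 to 4 and at 21.5, 23.8, 23.0 and 21.7 CPM in WT hearts 5 to 8. The whole range of Cidea was 1.57-fold, and WT heart 6, with 0 counts of Ucp1, had the highest level.

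Fabp4 (also called aP2), which carries fatty acids in the cytoplasm, and Pparg were likewise present in every heart at levels within 2-fold of each other. Fabp4 stood at 386, 296, 419 and 377 CPM in null hearts 1 to 4 and at 536, 549, 368 and 413 CPM in WT hearts 5 to 8. Null heart 2 and WT heart 7 were here the lowest of their groups. The summed level of 7 endothelial genes was also low in these 2 hearts, at 1154 and 1133 CPM against 1231 to 1431 CPM in the other 6, and its part in the Fabp4 values was not tested. Pparg was at 8.83, 7.52, 7.68 and 8.14 CPM in null hearts 1 to 4 and at 8.53, 10.5, 7.88 and 8.51 CPM in WT hearts 5 to 8. Its range was 1.4-fold, with WT heart 6 on top and null heart 2 at the bottom. The list thus held 7 genes that were highest in WT heart 7, of which Ucp1 was counted in 2 hearts alone and Lep had 33 counts. The other 3 genes, Cidea, Fabp4 and Pparg, had levels that did not mark the hearts with the other fat transcripts.

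**Figure D1:**
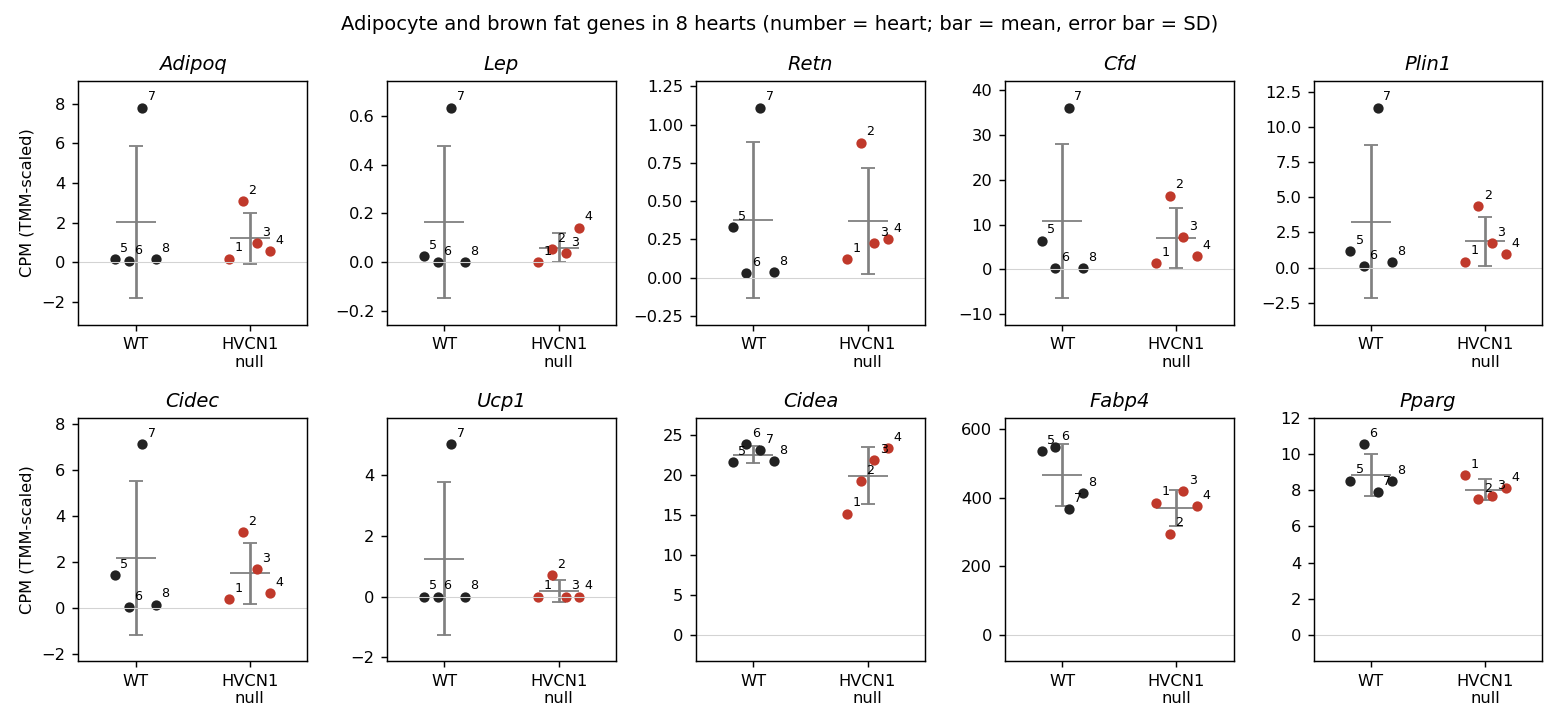
CPM (vertical axis, scaled by TMM) of the 10 genes in the 4 WT hearts (black) and 4 HVCN1 null hearts (red). Points are hearts with their number, grey dashes are group means and error bars are SD, so bars that reach below 0 reflect only the large spread. WT heart 7 and null heart 2 stand out in the top row and in Cidec and Ucp1, except that null heart 4 leads the null hearts for Lep, while Cidea, Fabp4 and Pparg are at similar levels in all 8 hearts.

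Per kilobase of exon the 10 genes had a clear order of mean level over the 8 hearts, but few neighbours in it were separated in every heart. Fabp4 led with 93.1 CPM per kb, although its exon length of 4489 bases covers the whole annotated gene, introns included, which lowers this value. Cidea followed at 19.0 CPM per kb, Cfd at 9.63 and Pparg at 2.86. Adipoq, Cidec and Plin1 came next at 1.17, 0.988 and 0.551 CPM per kb, and Ucp1, Retn and Lep closed the order at 0.439, 0.237 and 0.0333 CPM per kb. The upper gene of a neighbouring pair was higher in all 8 hearts only for Fabp4 over Cidea and for Retn over Lep. Cfd was above Pparg in 5 of 8 hearts, Adipoq above Cidec in 5 and Ucp1 above Retn in 1, so the place of these pairs depended on the heart.

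The comparison of HVCN1 null with WT hearts asks whether loss of the proton channel changed fat transcripts, and no member passed it. With edgeR's quasi-likelihood test over 14796 genes and a Benjamini-Hochberg adjusted p under 0.05, 169 genes (1.14%) were called, and 0 of the 7 members that passed the filter on low counts. Adipoq averaged 1.19 ± 1.29 CPM in null and 2.03 ± 3.85 CPM in WT libraries (SD, n = 4 per genotype), and the fitted log2 fold change was -0.77 with a 95% interval from -3.62 to 2.09 and an edgeR adjusted p of 0.920. For Cfd the log2 fold change was -0.62 (interval -3.25 to 2.01), for Plin1 -0.81 (interval -3.27 to 1.65) and for Cidec -0.55 (interval -2.98 to 1.88). Such wide intervals leave room for large changes in either direction. The median log2 fold change of the 7 tested members was -0.55, beside -0.01 over all tested genes. Without WT heart 7 all 4 estimates turned positive, Adipoq to 3.44 (edgeR adjusted p = 0.178), Plin1 to 1.71, Cfd to 1.55 and Cidec to 1.43.

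The 3 evenly expressed genes gave tighter estimates. The log2 fold change was -0.18 for Cidea (SE 0.12, interval -0.46 to 0.10), -0.34 for Fabp4 (SE 0.16, interval -0.69 to 0.01) and -0.14 for Pparg (SE 0.12, interval -0.41 to 0.13), with edgeR adjusted p of 0.710, 0.479 and 0.803. Fabp4 averaged 369 ± 52.4 CPM in null and 466 ± 89.9 CPM in WT libraries (SD, n = 4 per genotype), and its groups overlapped. All 10 genes were also compared by a two-sided exact permutation test of mean CPM over the 70 assignments of hearts, whose smallest possible p is 0.0286. Fabp4 had the lowest p at 0.2, and 0 of 10 reached 0.05. Ucp1 was counted in 1 heart of each group, and this arrangement alone fixes its exact permutation p at 1, so the test could not inform on it. Lep had an exact permutation p of 0.971. The libraries carry no label of a batch, so no within-batch values could be computed.

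The same genes were then read against the atrial score, with genotype in the model. Of the 14796 genes, 308 (2.08%) were higher with the score at an edgeR adjusted p under 0.05. Among them were 4 of the 7 tested members, namely Cfd, Cidec, Plin1 and Adipoq. The list was chosen with earlier results of these data known, so this count is no independent test. Cfd rose by 0.76 on the log2 scale per unit of score (SE 0.03, edgeR adjusted p = 4.75e-06) and had the smallest p of all 14796 genes. Cidec rose by 0.69 (SE 0.05, edgeR adjusted p = 7.57e-05), Plin1 by 0.63 (SE 0.07, adjusted p = 6.96e-04) and Adipoq by 0.78 (SE 0.11, adjusted p = 0.00440). The slopes of Cidea, Fabp4 and Pparg were 0.01, -0.03 and -0.03, with edgeR adjusted p of 0.960, 0.760 and 0.578. The median slope of all tested genes was -0.00 and that of the 7 tested members 0.63.

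Ucp1, Lep and Retn were left out by the filter on low counts. In the same edgeR model without that filter, where 1.75% of 23624 genes were higher with the score, Retn had a slope of 0.54 (SE 0.08, edgeR adjusted p = 5.05e-04) and Lep 0.59 (SE 0.18, adjusted p = 0.149). Ucp1 passed with an edgeR adjusted p of 9.13e-06, but its fitted slope is set by 6 hearts at 0 and is not given as a size. Its call rests on null heart 2 and WT heart 7 alone, where Bmp10, a gene of the score, was also high. With the score in the model, 229 genes (1.55%) differed by genotype and 0 of the 7 tested members did. The interval of the genotype difference was then narrower for Cfd, at 0.08 with a range from -0.33 to 0.49 on the log2 scale, and for Adipoq, at 0.09 from -1.20 to 1.37.

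**Figure D2:**
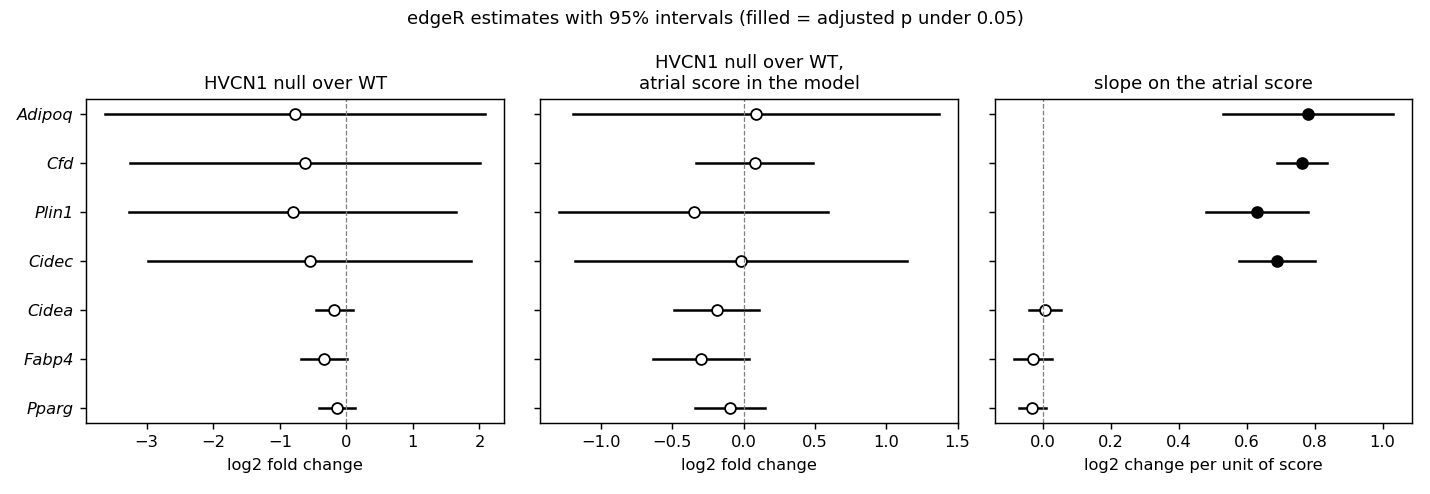
edgeR estimates for the 7 members that passed the filter, as log2 fold change of HVCN1 null over WT (left), the same with the atrial score in the model (middle) and log2 change per unit of atrial score (right). Circles are estimates, lines 95% intervals, and filled circles mark an adjusted p under 0.05, which are 0, 0 and 4 of the 7 genes in the 3 panels.

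Leaving out hearts showed which of these relations rested on the 2 hearts with the highest score. Without WT heart 7 the Adipoq slope was 0.50 and its call was lost (edgeR adjusted p = 0.193). Without both null heart 2 and WT heart 7, a choice made after seeing the data, Cfd kept a slope of 0.75 (edgeR adjusted p = 2.85e-04) and Cidec of 0.66 (adjusted p = 0.0224), beside 0.705% of all genes called higher. Plin1 was then at 0.42 (edgeR adjusted p = 0.0807), and Adipoq did not pass the filter. A score of Myl7, Sln and Myl4 alone left the Adipoq slope at 0.55 (edgeR adjusted p = 0.0651).

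Across the 8 hearts the correlation of log2 CPM with the score gave the same picture but did not pass a correction over all genes. Pearson's r was 0.995 for Cfd, 0.979 for Cidec, 0.969 for Retn, 0.936 for Plin1 and 0.855 for Adipoq. Spearman's rho was 0.952 for each of the first 4 and 0.833 for Adipoq. The two-sided exact permutation p over 40320 orders of the hearts was 9.92e-05 for Cfd and for Cidec, and after adjustment over 14799 genes 0.0638 for both, so 0 of the 10 genes passed 0.05. With WT 6 and WT 8 left out, whose scores lay most distant from the median, r was 0.990 for Cfd, 0.988 for Cidec, 0.95 for Plin1, 0.929 for Retn and 0.811 for Adipoq. Pparg went the other way with r of -0.737 (exact permutation p = 0.0255, adjusted p = 0.408), and Fabp4 was at -0.468 and Cidea at 0.007. For Ucp1 r was 0.712 (exact permutation p = 0.0536, adjusted p = 0.523), resting on 2 nonzero hearts. For Lep, with counts in 5 hearts, r was 0.688, and 0.512 without null heart 2 and WT heart 7.

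**Figure D3:**
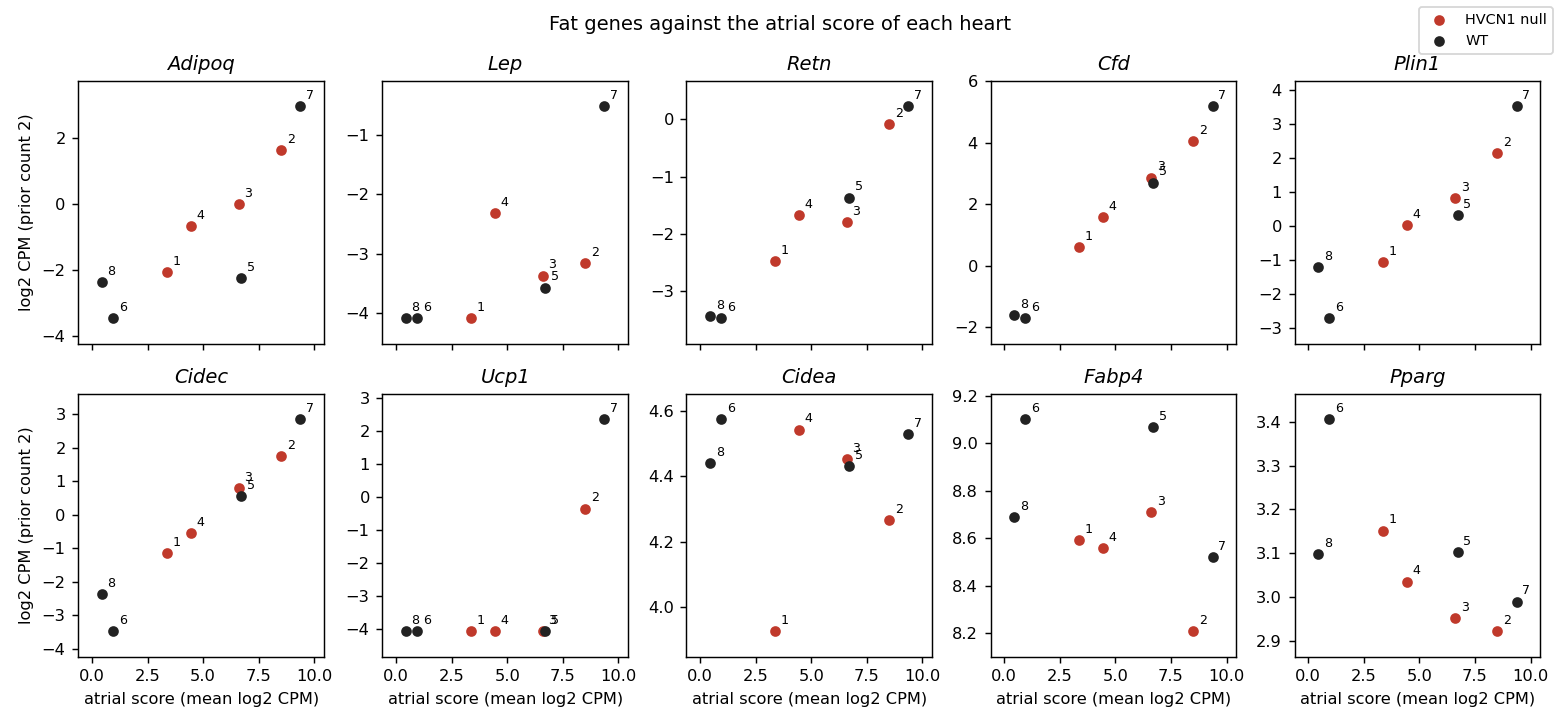
log2 CPM (prior count 2, vertical axis) of each gene against the atrial score (horizontal axis, mean log2 CPM of 7 atrial genes) in 4 HVCN1 null hearts (red) and 4 WT hearts (black), with heart numbers. Cfd and Cidec lie close to a line over the 8 hearts, Adipoq of WT heart 5 falls below its neighbour null heart 3 (0.152 and 0.95 CPM), and Ucp1 leaves its floor only in null heart 2 and WT heart 7.

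Adipoq was low relative to Plin1 and Cidec in WT heart 5. It made up 5.50% of the summed Adipoq, Plin1 and Cidec counts there (6 of 109, exact 95% interval 2.05 to 11.6%). The share was 29.7% in WT heart 7 (295 of 994, interval 26.9 to 32.6%), 28.7% in null heart 2 (115 of 401, interval 24.3 to 33.4%), 21.9% in null heart 3 and 26.3% in null heart 4. The interval of WT heart 5 lay below those 4, and it covers counting error only, since reads are not independent molecules. Null heart 1 (18.2% of 33 counts), WT heart 8 (21.1% of 19) and WT heart 6 (1 of 5 counts) were too shallow to separate from it.

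**Figure D4:**
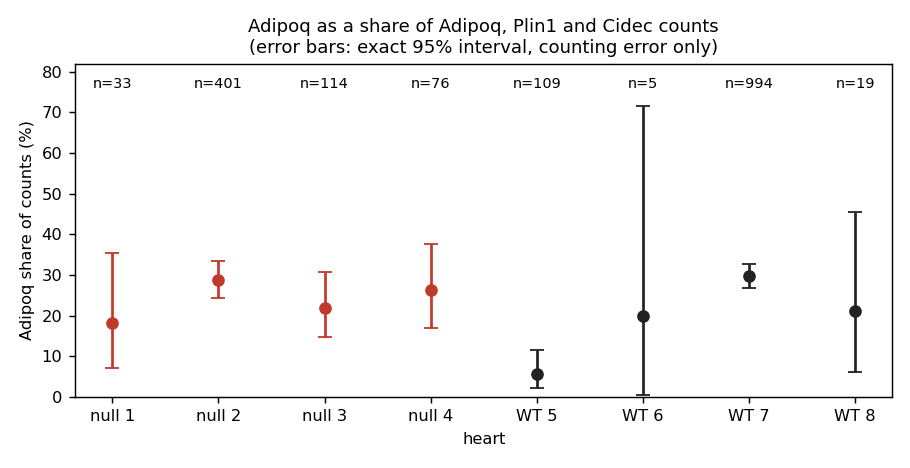
Share of Adipoq in the summed counts of Adipoq, Plin1 and Cidec (percent, vertical axis) in each HVCN1 null (red) and WT (black) heart, with exact 95% intervals as error bars and the summed counts on top. WT heart 5, at 5.50%, lies below the intervals of null hearts 2, 3 and 4 and of WT heart 7.

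Ucp1 was set against Adipoq in the same way. It was 39.2% of the summed Ucp1 and Adipoq counts in WT heart 7 (190 of 485, exact 95% interval 34.8 to 43.7%) and 19.0% in null heart 2 (27 of 142, interval 12.9 to 26.4%). In null heart 3, with 25 Adipoq counts, a Ucp1 count of 0 has an exact upper limit of 13.7%, and in null heart 4, with 20, of 16.8%. Both limits overlap the interval of null heart 2. The intervals and limits cover counting error only, and each share comes from 1 library, so a difference between hearts was not tested.

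Other genes of adipocytes were read from lists by role. Over all tested genes, 2.08% were higher with the atrial score and 1.14% were called by genotype. Among 14 adipogenic transcription factors, 1 was higher with the atrial score and 0 differed by genotype. This was Cebpa, which drives terminal fat differentiation with PPARG, with a slope of 0.12 (SE 0.03, edgeR adjusted p = 0.0298) and levels from 5.57 to 15.6 CPM. Its call was lost without null heart 2, WT heart 7 or WT heart 8 (adjusted p up to 0.314). The most abundant of them was the coactivator gene Ppargc1a, at 82.4 CPM on average, with a slope of -0.01. Of 16 genes of droplet coats and lipolysis, 0 passed either test, and Pnpla2 (ATGL, the first lipase of triglyceride breakdown) was present at 331 to 426 CPM in all hearts.

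The lipid synthesis genes included 3 of 16 that were higher with the score, beside 2.08% of all tested genes. Pck1, which makes the glycerol backbone in fat, stood at 19.1 CPM in WT heart 7, at 5.30 CPM in null heart 2 and at 0.0618 to 1.75 CPM elsewhere. Its slope was 0.78 (SE 0.10, edgeR adjusted p = 0.00158). Fasn, the fatty acid synthase, was at 135 and 89.0 CPM in these 2 hearts and at 26.8 to 40.8 CPM in the other 6. Scd1, a fatty acid desaturase, was at 146 and 65.1 CPM against 17.5 to 26.9 CPM. Without the 2 hearts the slopes were 0.42 for Pck1, 0.02 for Fasn and 0.08 for Scd1, with edgeR adjusted p of 0.0692, 0.689 and 0.119, so all 3 calls were lost. With 1 heart left out, Pck1 kept its call, Scd1 lost it without WT heart 7 or 8 (adjusted p up to 0.314), and Fasn lost it without null heart 1 or 2 or WT heart 6, 7 or 8 (adjusted p up to 0.587). The Fasn slope was 0.11 without WT heart 7, against 0.22 with it.

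Of 16 tested genes of a further list of adipocyte-enriched genes, 3 were higher with the score, beside 2.08% of all tested genes. Car3, a carbonic anhydrase that is very abundant in mouse fat, had a slope of 0.83 (SE 0.05, edgeR adjusted p = 4.02e-05), with 59.6 CPM in WT heart 7 and 0.338 CPM in WT heart 8. Cyp2e1 had a slope of 0.67 (SE 0.04, adjusted p = 1.65e-05), and Npr3, the clearance receptor of natriuretic peptides, a slope of 0.22 (SE 0.04, adjusted p = 0.0148). Car3 (0.64) and Cyp2e1 (0.67) passed without hearts 2 and 7, and Npr3 (0.08) did not, nor did it without WT heart 7 or WT heart 8 alone (adjusted p up to 0.311). The glucose carrier Slc2a4, the most abundant gene of this list and also a gene of heart muscle, had a slope of -0.03.

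Of 11 tested genes in the brown fat list, 1 was higher with the score, beside 2.08% of all tested genes. That was Ucp2, a relative of Ucp1 found in many cell types, with a slope of 0.19 (SE 0.02, edgeR adjusted p = 4.66e-04). Cox7a1 and Cox8b, subunits of cytochrome oxidase that brown fat shares with the heart, stood at 428 and 264 CPM in WT heart 7, the lowest of the 8 hearts for both. The other 8 brown fat genes were below the filter, with at most 0.317 CPM in any heart, and had no common order of hearts. WT heart 7 was highest for 2 of them (Elovl3 and Otop1), null heart 2 for 1 (Zic1) and another heart for 4 (Tmem26, Tnfrsf9, Fgf21 and Bmp8b). Elovl3 had 11 counts in WT heart 7 and 0 elsewhere. Otop1 had 12 counts in WT heart 7, 8 in null heart 2 and 1 in null heart 3. Zic1 had 5 counts in null heart 2, 2 in WT heart 7 and 1 each in null heart 1 and WT heart 6. The 4 genes highest in another heart had at most 8 counts in any heart. Lhx8 had 0 counts in all hearts, which allows up to 3 counts per library. Of the adipocyte-enriched list described before, 7 genes were below the filter, led by Adrb3, the adrenergic receptor of adipocytes, at 2.88 CPM in WT heart 7, and WT heart 7 was highest for all 7. This count and these genes were chosen after their values were seen.

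By genotype, 1 gene in each of 3 lists was lower in the HVCN1 null hearts, and none of these was called with the atrial score. These lists held 9, 16 and 11 tested genes in the order given below, and 1.14% of all tested genes were called by genotype. Angptl4, an inhibitor of lipoprotein lipase, fell by 2.89 on the log2 scale (SE 0.49, edgeR adjusted p = 0.0202). It was at 1.95, 6.23, 1.82 and 8.65 CPM in null hearts 1 to 4 and at 40.8, 44.5, 38.2 and 16.7 CPM in WT hearts 5 to 8, with no overlap. Thrsp, a regulator of lipogenesis, fell by 0.94 (SE 0.15, adjusted p = 0.0164). Pdk4, the kinase that turns off pyruvate dehydrogenase when fatty acids are burned, fell by 1.35 (SE 0.28, adjusted p = 0.0493). The Pdk4 call was lost in 6 of the 8 fits that left out 1 heart (all but those without null heart 4 or WT heart 8), with edgeR adjusted p up to 0.163, and in 11 of 15 alternatives in all. Angptl4 lost its call without null heart 1 or WT heart 5 or 6 (adjusted p up to 0.0684), and Thrsp without null heart 1 or WT heart 5 (up to 0.0553).

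Of 9 tested genes of fatty acid uptake, which held Angptl4, 0 were higher with the score, and the most abundant was Lpl, lipoprotein lipase, with 4108 CPM on average and a slope of -0.04. Of 4 adipokine receptors (led by Adipor1 at 211 CPM) and 8 tested genes of adipocyte precursors (led by Cd34 at 121 CPM), 0 passed either test. The median log2 fold change by genotype was -0.24 over the 8 precursor genes and -0.06 over the 4 receptors, beside -0.01 over all tested genes. Across the 8 related fat lists the median slope lay between -0.02 for the uptake genes and 0.02 for the precursors.

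Markers of other cells that could come with fat at the base of the heart were read in the same way, beside 2.08% of all tested genes higher with the score. Of 6 mesothelial and epicardial genes, 5 (Upk3b, Upk1b, Msln, Lrrn4 and Krt19) were higher with the score, with slopes from 0.44 to 0.56 and edgeR adjusted p up to 0.00302. Their sum with Wt1 was 49.5 CPM in null heart 2 and 63.2 CPM in WT heart 7, and 6.62 to 21.6 CPM in the other 6. None of the 5 passed without these 2 hearts, with adjusted p from 0.0545 to 0.0781. Of 4 tested Schwann cell genes, Mbp was higher with the score, with a slope of 0.20 (SE 0.02, edgeR adjusted p = 3.88e-04). No gene of the ventricular, cardiomyocyte, endothelial, macrophage, thymus, B cell, smooth muscle, skeletal muscle or erythroid lists was called with the score, and of these lists Acta2 of smooth muscle alone differed by genotype (log2 fold change 1.32, SE 0.26, edgeR adjusted p = 0.0466). The Acta2 call was lost in 6 of the 8 fits without 1 heart, all but those without null heart 2 or 4 (adjusted p up to 0.149). The part of mesothelial tissue or of any other cell type in the fat gene values was not tested.

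**Figure D5:**
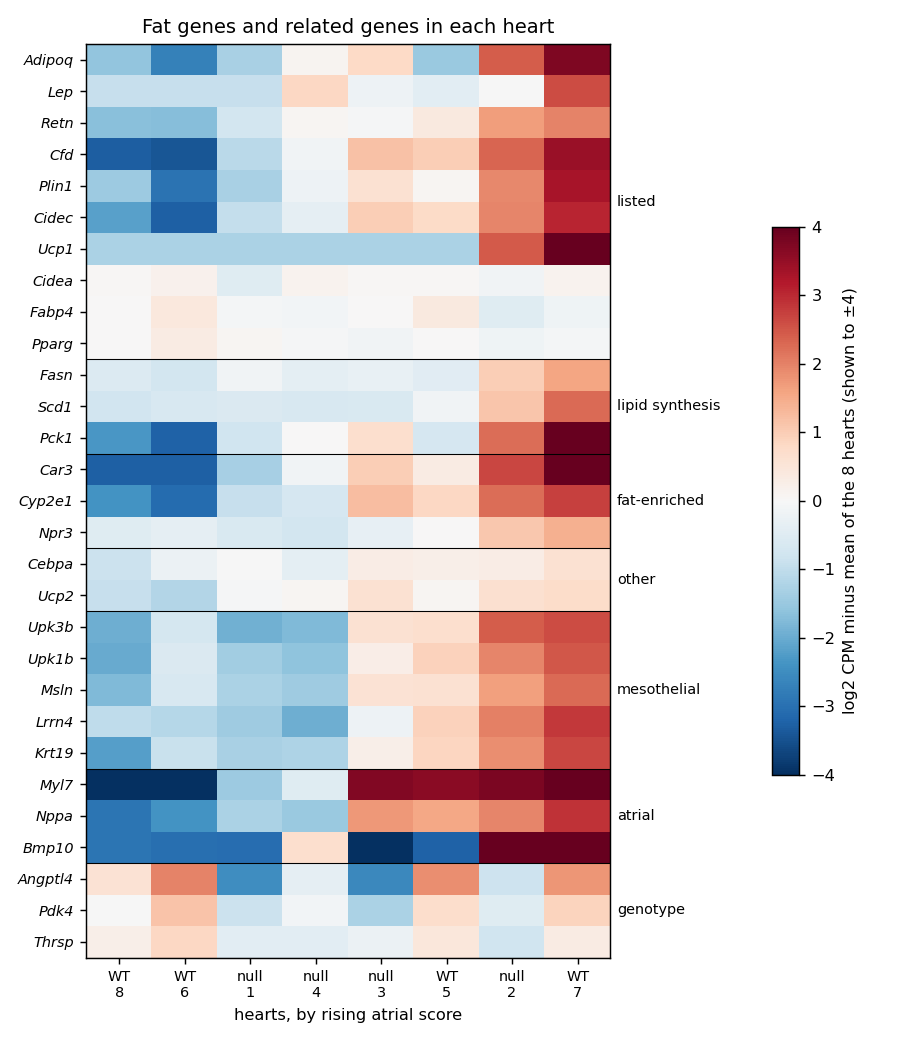
log2 CPM minus the mean of the 8 hearts (color, shown to ±4) for the 10 listed genes and a chosen part of the related genes named in the text, with hearts ordered by rising atrial score. Ppargc1a, Pnpla2, Slc2a4, Lpl, Cox7a1 and Cox8b, named in the text without a call, are not shown. The right columns, null heart 2 and WT heart 7, are high for most listed genes, though not Cidea, Fabp4 and Pparg, and for the lipid synthesis, mesothelial and atrial genes shown. The 3 genes at the bottom differ by genotype.

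Among 12907 tested genes with a mean of at least 1 CPM, the 10 outside the list whose log2 CPM was most like Adipoq over the 8 hearts had Pearson's r from 0.948 to 0.987. They were Erbb4, Pck1, Cacna2d2, Cdh13, Rabgap1l, Aff2, Epha7, Gne, Cers6 and Uso1 in falling order. All points share the 8 libraries, in which WT heart 7 stands apart, so this is a description with no test. Erbb4 was at 22.9 CPM in WT heart 7 and 19.4 CPM in null heart 2, and at 6.98 to 11.9 CPM elsewhere. Cdh13 encodes T-cadherin, which binds adiponectin, and was at 151 to 191 CPM, a range far narrower than that of Adipoq. Within the list, r with Adipoq was 0.955 for Plin1, 0.901 for Retn, 0.898 for Cidec and 0.880 for Cfd, against 0.074 for Cidea, -0.737 for Fabp4 and -0.787 for Pparg.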

How the data were processed

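RNA of 4 HVCN1 null and 4 WT hearts was sequenced as poly-A libraries, 1 per heart. According to the methods and the submitters' processing notes, the authors aligned reads with STAR and counted them on genes with featureCounts (versions not given). The table they deposited holds raw counts for each gene in each heart and no normalized values. The processing notes name mm10 and GRCm38, whereas the paper's text names a human build. The identifiers are mouse, so GENCODE M21 was used for positions and exon lengths. Groups and heart numbers came from the sample titles. No column of authors' comparisons was present.

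TMM factors, CPM and log2 CPM (prior count 2) came from edgeR 4.0.16 under R 4.3.3. Genes were kept by filterByExpr, and 14796 were tested with edgeR's quasi-likelihood test for genotype and for genotype with the atrial score, adjusted by Benjamini-Hochberg over all of them. Exact permutation tests listed every assignment or order in Python 3.11.15 with numpy 2.4.6. Ranks and exact binomial intervals used scipy 1.17.1. Alternatives used DESeq2 1.42.0, limma 3.58.1 and other scalings, filters, scores and left-out hearts. The scripts were tested on simulated data of 14624 genes, where 96% of genotype changes beside the score were recovered with 5.88% false among the calls, and 100% of slopes with 7.41% false. The planted changes had a fixed size, large for genotype, and lay in genes above a minimum level. The fit of genotype without the score was not simulated. These shares thus do not give the power for the listed genes. Totals ranged from 25851255 to 38874640 counts, and low genes such as Lep rest on few of them.

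The 10 genes and all lists were chosen with earlier results of these data known. Further genes were named where they passed an adjusted p under 0.05 in a list (at most 5), were the most abundant tested gene of a fat list, or were among the 10 most like Adipoq. Each heart was a separate mouse. The exact permutation p-values give the share of assignments or orders of these hearts with a difference or correlation at least as large as the observed one. Gyk of the brown fat list had no match in the table.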

Additional observations from a re-analysis of the deposited data

Results flagged for a closer look

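In 50 groups of 4 hearts (25 genes in each genotype), 17 held 1 heart far from the other 3 by Dixon's test. Chance flags about 1 in 20 groups, but that rate is no comparison here, because most related genes were picked after their values were seen. Angptl4, Pdk4 and Thrsp were named for a genotype difference, and Bmp10 is a gene of the atrial score. The others were picked for their likeness to Adipoq or for following that score, which is highest in null heart 2 and WT heart 7. All 17 were one of these 2 hearts. WT heart 7 stood apart for Adipoq (7.80 CPM), Plin1 (11.4 CPM), Lep (0.635 CPM) and Ucp1 (5.03 CPM), and null heart 2 for Ucp1 (0.722 CPM). Among related genes, Pck1 (19.1 CPM), Car3 (59.6 CPM), Erbb4 (22.9 CPM) and Cacna2d2 (38.8 CPM) stood apart in WT heart 7. Both hearts were apart for Bmp10 (418 CPM in null heart 2, 574 CPM in WT heart 7), Fasn (89.0 and 135 CPM), Scd1 (65.1 and 146 CPM) and Npr3 (47.8 and 61.0 CPM).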

How the results depend on the processing

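The number of listed genes called by genotype was 0 under every alternative run, with or without the atrial score. All genes called by genotype numbered 169, against 466 with DESeq2 and 71 to 152 when 1 heart was left out. The listed genes called with the atrial score numbered 4, against 2 without both null heart 2 and WT heart 7 (chosen after seeing the data) and 3 to 6 under the other alternatives. The slopes of Cfd and Cidec kept their direction and call in all 17 alternatives. The exact permutation tests of mean CPM passed for 0 genes in all 10 alternatives, and the correlation for 0 with the prior count at 0.5.

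The genotype estimate of the 4 fat genes, never called, changed sign with the setting. With limma voom it was 1.24 for Adipoq, 0.50 for Plin1, 0.91 for Cidec and 1.0 for Cfd. Without both hearts it was 0.84 for Plin1, 0.66 for Cidec and 0.69 for Cfd. Leaving out 1 heart gave -1.88 to 3.44 for Adipoq, -1.69 to 1.71 for Plin1, -1.33 to 1.43 for Cidec and -1.50 to 1.55 for Cfd. Beside the score, Adipoq was -0.0936 with DESeq2, -0.48 with the 3-gene score and -0.66 to 2.03 with 1 heart left out. Plin1 was 0.36 without both hearts and -0.75 to 0.44 with 1 left out, and Cidec 0.35 and -0.18 to 0.30. Cfd was -0.0921 with limma voom, -0.27 with the 3-gene score and -0.0484 to 0.37 with 1 left out. The slope of Cidea was -0.00104 without genotype in the model and -0.00929 to 0.0140 with 1 heart left out, and that of Fabp4 was 0.0360 without both hearts and -0.0574 to 0.000304 with 1 left out. The cause of these changes was not tested. No paired analysis was possible because null hearts are numbered 1 to 4 and WT hearts 5 to 8. Ucp1, Lep and Retn did not pass the filter with all 8 hearts. Lep, with 33 counts in all, is limited by counting error.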
